A study of Arabidopsis thaliana with 12 samples.

Results

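The comparison set the 2 arrays titled dexamethasone plus cycloheximide against the 2 arrays titled dexamethasone, 4 of the 12 arrays of the series, over all 22746 probe sets that are not Affymetrix controls. It measured what cycloheximide did to transcript signals while the floral regulator LEAFY was active. Whole Arabidopsis thaliana seedlings, 9 days old, that carried LEAFY-GR received dexamethasone plus cycloheximide or dexamethasone for 8 h. LEAFY-GR joins LEAFY, a transcription factor that turns on flower development, to the steroid-binding part of the glucocorticoid receptor, so that the fusion enters the nucleus when dexamethasone is given. The labels do not say which promoter drives the fusion, and no array holds seedlings that lacked LEAFY-GR and received dexamethasone. The other LEAFY-GR groups were cycloheximide and mock, also at 8 h, and untreated 35S::LFY and Landsberg erecta seedlings made up the last 2 groups, each of 2 arrays.

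Cycloheximide stalls elongation on cytosolic ribosomes and so stops most protein synthesis. In plants, as in animals and yeast, it is known to let transcripts of many early-response genes accumulate, a behaviour called superinduction, while transcripts that need a newly made regulator can be lost. In inducible-factor experiments it is added so that genes able to respond without new protein can be listed, and its own effect has to be measured beside the response to the factor.

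Each group had 1 array in lot 1 and 1 array in lot 2, and values below are given in that order. The median signal was 49.8 and 57 on the dexamethasone plus cycloheximide arrays, against 61.8 and 64.2 on the dexamethasone arrays, and the 2 arrays of a group correlated at 0.971 and 0.967 on the log2 scale. The geometric mean of the 18 spiked hybridisation controls was 867 and 786 with dexamethasone plus cycloheximide, against 642 and 696 with dexamethasone. The ratio of 3′ to 5′ signal, a measure of RNA quality, was 1.21 and 0.978 with dexamethasone plus cycloheximide, against 1.58 and 1.47 with dexamethasone, for 1 GAPDH probe set pair, and 1.12 and 1.01 against 1.17 and 1.28 for the other. Both pairs gave lower ratios with dexamethasone plus cycloheximide, without overlap of the groups. The ratio was 2.11 and 1.4 against 1.94 and 1.67 for actin, and 2.27 and 1.63 against 1.99 and 1.68 and 1.74 and 1.5 against 1.69 and 1.49 for the ubiquitin pairs, where the groups overlapped. Its part in the results was not tested. As markers of green tissue, RCA and LHCB4.1 had signals from 3492.3 to 7609.5 on the 4 arrays, and LHCB4.2, which was lower with cycloheximide, had 569.1 to 3202.8. The root hair expansin genes EXPA7 and EXPA18 had 25.9 to 68. Because whole seedlings were used, fewer cells of a type and less RNA per cell cannot be told apart. Nothing in the labels states that both arrays of a group stem from independent seedling batches. The p-values therefore rest on array-to-array spread alone, and that spread may be technical.

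Cycloheximide changed a large share of the seedling transcriptome. limma called 9239 of 22746 probe sets at a Benjamini-Hochberg adjusted p under 0.05, or 40.6%, of which 3280 were higher (14.4%) and 5959 lower (26.2%) with dexamethasone plus cycloheximide. A change of at least 1 log2 unit was found in addition for 2450 higher probe sets (10.8%) and 3695 lower ones (16.2%). All 9239 moved in the same direction in both lots, which follows largely from the call, since it rests on the mean of both lots. The rises reached further than the falls: 645 called probe sets were higher by at least 3 log2 units and 183 lower by as much, and at 5 log2 units the counts were 138 and 10. Changes were taken on log2(intensity + 10), where a dim signal can rise far but cannot fall far, so these counts are not like for like.

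The split between rises and falls depended on how the arrays were scaled. The median log2 change of all tested probe sets was -0.17 with the signals as deposited, -0.01 with arrays scaled to equal medians, -0.39 with scaling to the hybridisation controls and -0.07 with quantile normalisation, and changes are to be read against these shifts. Calls were 3280 higher and 5959 lower as deposited, 3984 and 4379 with equal medians, 2364 and 7099 with the hybridisation controls, and 3872 and 5266 with quantile normalisation. Under all 4 scalings 2362 probe sets were called higher and 4370 lower, which is used below to mark calls that do not rest on the scaling.

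Probe sets that are bright in untreated seedlings were mostly lowered. Bands were drawn on the mean signal in the Landsberg erecta arrays, which add to the fitted spread but not to the log2 changes. Of the 917 probe sets with a signal of 1000 and over there, 705 were called lower (76.9%) and 40 higher (4.36%). Of the 3534 probe sets under 10 in Landsberg erecta, 439 were called higher (12.4%) and 47 lower (1.33%). Lower calls took 5.56%, 28.9% and 63.5% of the bands from 10 to 50, 50 to 200 and 200 to 1000. The median log2 change of the brightest band was -1.12 as deposited, and -0.88, -1.42 and -1.26 under the other 3 scalings, so it lay below the median of all probe sets under each of them. A dim probe set has little room to be called lower, since a signal near the pseudocount of 10 cannot fall far on this scale.

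**Figure D1:**
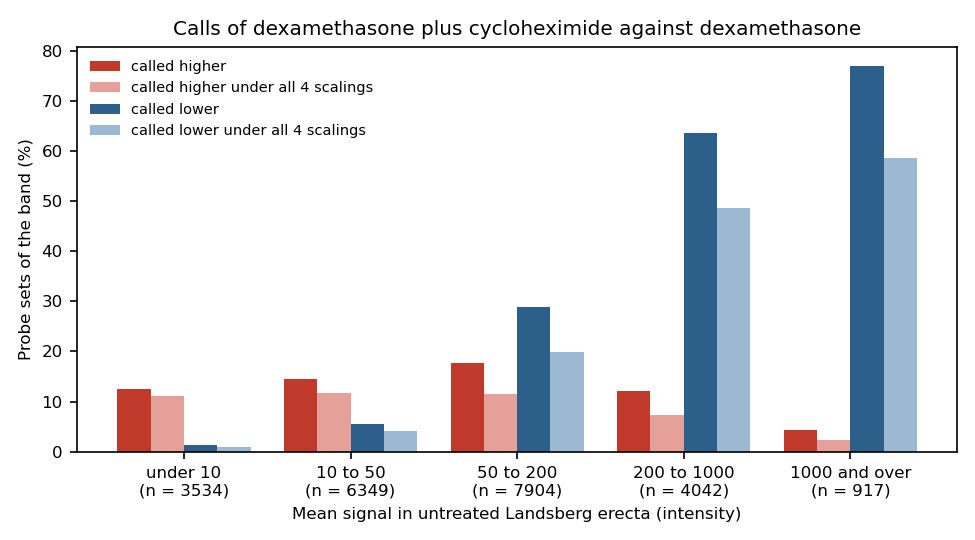
Share of probe sets (%) called higher (red) or lower (blue) with dexamethasone plus cycloheximide against dexamethasone, by the mean signal of the probe set in untreated Landsberg erecta; pale bars count calls made under all 4 scalings. The share called lower grows from 1.33% under a signal of 10 to 76.9% at 1000 and over, while the share called higher is largest, at 17.7%, from 50 to 200.

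Some transcripts were strong with dexamethasone plus cycloheximide and near the bottom of the scale with dexamethasone. In 15 probe sets both dexamethasone arrays lay under 10 and both dexamethasone plus cycloheximide arrays at 1000 or more, of which 1, NDB4, has a gene symbol. The opposite pattern, at least 500 on both dexamethasone arrays and under 10 on both dexamethasone plus cycloheximide arrays, was found for 3 probe sets, AT1G19530, AT4G39675 and an unnamed one, all chosen after their values were seen.

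The 15 genes with a symbol that rose most have varied roles and are described one by one. CCR2, a cinnamoyl-CoA reductase of lignin synthesis, had signals of 2865 and 2115.9 with dexamethasone plus cycloheximide, against 3.6 and 14 with dexamethasone, a log2 change of 7.10 ± 0.41 (SE from limma, adjusted p = 1.00e-07). CCOAMT, a caffeoyl-CoA methyltransferase of the same pathway, had 2867.5 and 2651.3 against 54.1 and 53.3 and rose by 5.44 ± 0.20. DLAH, a lipase of the family that releases fatty acids for oxylipins, had 5520.1 and 4867.9 against 35.4 and 39.1 and rose by 6.78 ± 0.15. OPCL1, a peroxisomal CoA ligase of jasmonate synthesis, rose by 4.46 ± 0.16, with 3202.2 and 2881 against 133.3 and 123. In each of these genes the lowest dexamethasone plus cycloheximide array lay far above the highest dexamethasone array.

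CML37 and CML38 encode calmodulin-like calcium sensors that respond to wounding. CML37 had signals of 2854.6 and 2109.6 with dexamethasone plus cycloheximide, against 34.6 and 9.4 with dexamethasone, and rose by 6.39 ± 0.42. CML38 had 4051.9 and 3718.2 against 229.4 and 60 and rose by 4.91 ± 0.55. The dexamethasone arrays of these genes differed several-fold between lots, and the lot 1 array was the higher one in 11 of the 15 genes that rose most.

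GRX480, a glutaredoxin that binds TGA transcription factors, had 5694.4 and 4433.1 with dexamethasone plus cycloheximide, against 113.3 and 45.1 with dexamethasone, and rose by 5.93 ± 0.50. NDB4, an external NAD(P)H dehydrogenase of mitochondria, had 1490.6 and 2106 against 5.9 and 7 and rose by 6.76 ± 0.32. Both dexamethasone signals of NDB4 lay below the pseudocount, so its change is understated on this scale. The receptor-like kinase gene B120 rose by 5.59 ± 0.23, with 2552.3 and 2177.5 against 50.4 and 30.

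XTH18 and XTH19, neighbouring genes for enzymes that cut and rejoin xyloglucan in the wall, rose by 5.13 ± 0.20 and 5.17 ± 0.24. XTH18 had 6742.6 and 6694.3 with dexamethasone plus cycloheximide, against 228 and 145.4 with dexamethasone, and XTH19 had 556.2 and 536 against 2.1 and 9.7. BZIP60, a transcription factor gene of the unfolded protein response in the endoplasmic reticulum, had 7433.5 and 7611 against 484.4 and 304.3 and rose by 4.26 ± 0.21. Further rises were measured for ZCF37 (5.45), the β-glucosidase gene BGLU27 (4.75) and the glycosyltransferase gene UGT73D1 (4.44). All 15 genes were called higher under each of the 14 alternatives tried, and in all 15 both dexamethasone plus cycloheximide arrays lay above both dexamethasone arrays. The genes were chosen by their change on these same arrays, so this separation follows largely from the choice.

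Of the loci known here by code only, AT2G23270 rose by 7.81 ± 0.30 log2, with 5574.4 and 4909.8 with dexamethasone plus cycloheximide, against 5.8 and 24.6 with dexamethasone. AT3G53600 had 2407 and 2139.4 against 0.6 and 0.5, and AT5G52760 had 2437.3 and 1756.7 against 1.7 and 1.7. AT2G20720 rose by 7.29 and AT4G28460 by 7.22. These 5 were again called higher under all 14 alternatives.

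**Figure D2:**
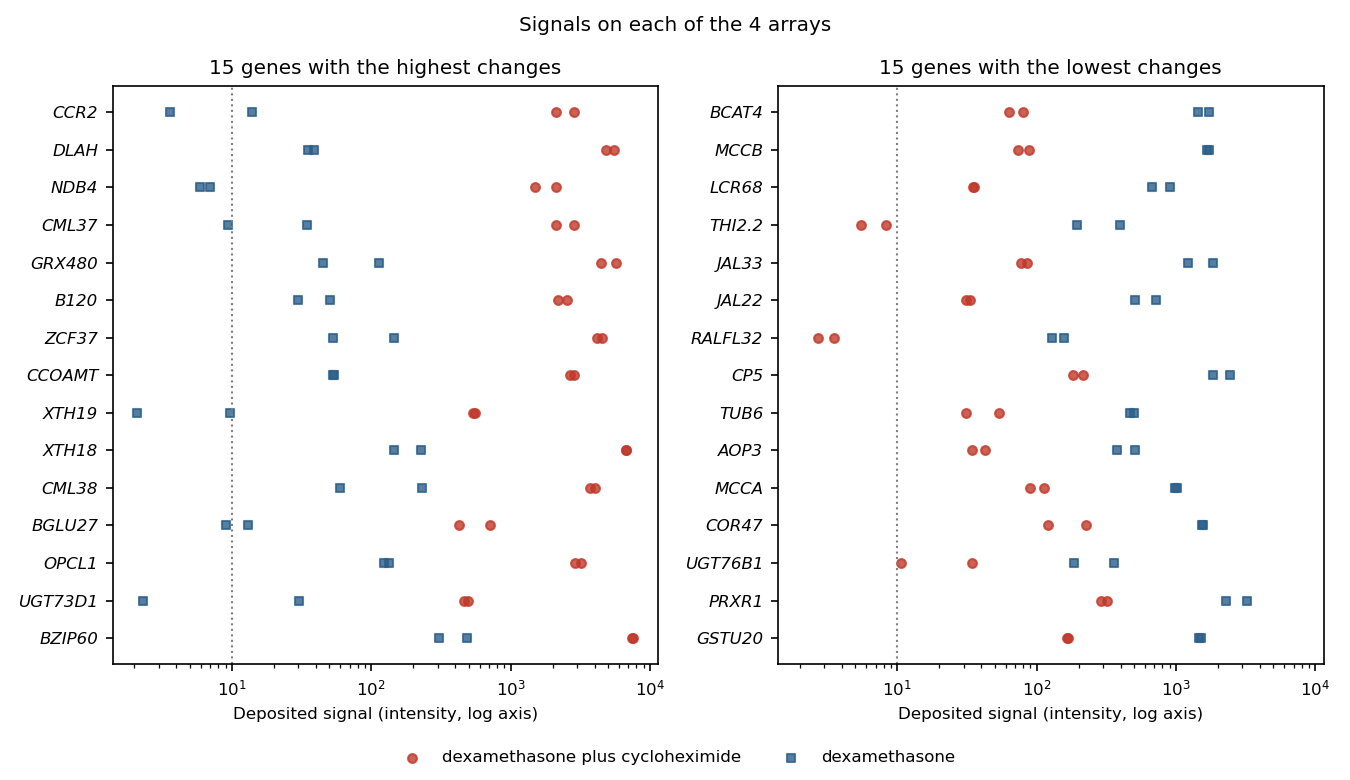
Deposited signal (intensity, log axis) of the 15 genes with the highest and the 15 with the lowest log2 change, with red circles for the 2 dexamethasone plus cycloheximide arrays and blue squares for the 2 dexamethasone arrays; the dotted line marks the pseudocount of 10. The 30 genes were chosen by their change on these arrays, so that the groups do not overlap in any of them follows largely from the choice. CCR2, with 2865 and 2115.9 against 3.6 and 14, has the highest log2 change (7.10).

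The 15 genes with a symbol that fell most are likewise given singly. BCAT4, the aminotransferase that starts methionine-derived glucosinolate synthesis, had signals of 79.3 and 62.9 with dexamethasone plus cycloheximide, against 1735.4 and 1447 with dexamethasone, a log2 change of -4.30 ± 0.17 (limma, adjusted p = 7.52e-09). AOP3, which modifies glucosinolate side chains, had 42.6 and 34.5 against 505.8 and 376.8 and changed by -3.21 ± 0.20. MCCB and MCCA encode both subunits of methylcrotonyl-CoA carboxylase, a mitochondrial enzyme of leucine breakdown. MCCB had 87.8 and 74 against 1728.2 and 1672.9 and MCCA 112.6 and 89.6 against 988.6 and 1023.4, changes of -4.24 ± 0.22 and -3.20 ± 0.18.

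LCR68, a defensin-like gene, changed by -4.13 ± 0.35, with 34.9 and 35.7 with dexamethasone plus cycloheximide, against 678.4 and 900.9 with dexamethasone. The thionin gene THI2.2 had 5.5 and 8.3 against 394.1 and 194.2 and changed by -4.09 ± 0.29. The jacalin-related lectin genes JAL33 and JAL22 changed by -4.05 ± 0.19 and -3.87 ± 0.27, with JAL33 at 77.7 and 85 against 1212.2 and 1848.5. All of these signals were clearly apart between the groups, which follows largely from the choice of genes by their change. THI2.2 lay below the pseudocount on both dexamethasone plus cycloheximide arrays, as did RALFL32.

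RALFL32, a member of a family of small secreted peptides that signal at the cell surface, had 2.7 and 3.5 with dexamethasone plus cycloheximide, against 156.5 and 128.4 with dexamethasone, and changed by -3.54 ± 0.22. The β-tubulin gene TUB6 had 53.4 and 30.9 against 468.5 and 499 and changed by -3.28 ± 0.19. The dehydrin gene COR47, known from the cold response, had 224.3 and 120.9 against 1573.9 and 1548.2 and changed by -3.17 ± 0.23. CP5 (-3.35), the glycosyltransferase gene UGT76B1 (-3.15), the peroxidase gene PRXR1 (-3.11) and the glutathione transferase gene GSTU20 (-3.09) complete the 15, all called lower under each of the 14 alternatives.

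By code, AT4G39675 had 1.5 and 0.8 with dexamethasone plus cycloheximide, against 913.7 and 527.6 with dexamethasone, a change of -5.98 ± 0.24, and AT1G19530 had 3.6 and 8.3 against 995.8 and 668.2 (-5.71 ± 0.25). AT3G11930 (-5.55), AT2G05540 (-5.35) and AT3G62550 (-5.16) followed. AT5G60630, a locus with 2994.6 and 2463.8 with dexamethasone, against 58.1 and 49.1 in mock, was chosen after its values were seen. It had 754 and 672.7 with dexamethasone plus cycloheximide and changed by -1.92 ± 0.23 relative to dexamethasone (limma, adjusted p = 3.55e-05).

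Gene lists were read against all 13333 named loci, of which 1790 were called higher (13.4%) and 3014 lower (22.6%), with a median log2 change of -0.13. The 26 lists of loci held 827 entries and the plastid list was taken by chromosome; 232 of the entries had a probe set named by 1 locus, and 4 lists (JAZ repressors, ethylene synthesis, brassinosteroid metabolism and aquaporins) had none. Each list below is therefore a sample of its pathway.

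All 8 measured rapid stress and wound genes rose, and all 8 were called higher under every scaling, with a median of 3.82. Besides CML37 and CML38 they were PUB22, PUB23 and PUB24, U-box ubiquitin ligases that dampen immune signalling, the zinc-finger repressor gene STZ, AR781 and AT1G76640. STZ had 8839.6 and 8032.9 with dexamethasone plus cycloheximide, against 976.7 and 766.1 with dexamethasone, and rose by 3.27 ± 0.17. PUB24 had 1374.4 and 1417.3 against 72.2 and 72.1 and rose by 4.1 ± 0.14. The groups did not overlap in either gene, which follows largely from the calls, and the lowest change of the 8 was that of AT1G76640 (2.01).

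The 3 measured WRKY transcription factor genes rose too. WRKY53, a regulator of leaf senescence and defence, had 771.2 and 320.1 with dexamethasone plus cycloheximide, against 19.6 and 21.1 with dexamethasone, and rose by 4.06 ± 0.42. WRKY6 rose by 2.90 ± 0.31 and WRKY22, which acts below immune receptors, by 2.2 ± 0.15. Both measured genes of pattern immunity rose by similar amounts: the cytoplasmic kinase gene BIK1, with 2190.2 and 2682 against 523.5 and 431.9, by 2.33 ± 0.16, and EFR, the receptor for bacterial elongation factor Tu, with 90.4 and 70.1 against 13.6 and 3.1, by 2.35 ± 0.34. These 5 calls were made under all 4 scalings.

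Genes of hormone pathways moved in both directions within single families. Of the 5 measured GH3 genes, which encode enzymes that conjugate auxin and other acids to amino acids, 2 rose and 1 fell. GH3.3 had 1009.1 and 370.8 with dexamethasone plus cycloheximide, against 33.4 and 26.6 with dexamethasone, and rose by 3.97 ± 0.40, and GH3.1 had 125.4 and 119 against 3.4 and 6.9 and rose by 3.13 ± 0.33. WES1 fell by 0.74 ± 0.17, a call lost with arrays scaled to equal medians (limma, adjusted p = 0.0783), and GH3.9 and GH3.17 had log2 changes of 0.30 and -0.07. Of the 7 Aux/IAA repressor genes, targets of auxin that hold its response in check, 1 was called: IAA33 had 14.4 and 16.4 against 25.8 and 50.4 and fell by 0.87 ± 0.30 (limma, adjusted p = 0.0365), a call lost under 7 of the 14 alternatives, among them the fits without the lot 2 array of dexamethasone or without either dexamethasone plus cycloheximide array. The median of the Aux/IAA list was 0.10 as deposited, 0.27 with equal medians, -0.19 with the hybridisation controls and 0.20 with quantile normalisation. Its higher and lower calls were 1 and 0 with equal medians, 0 and 1 with the hybridisation controls and 1 and 1 with quantile normalisation, and no member was called under all 4 scalings.

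All 3 gibberellin receptor genes changed, under every scaling, and they did so in opposite directions. GID1B had 338.7 and 467.2 with dexamethasone plus cycloheximide, against 107.1 and 94.9 with dexamethasone, and rose by 1.88 ± 0.25. GID1A had 79.2 and 54.1 against 205.1 and 213.4, and GID1C 38.9 and 22.6 against 89.7 and 100.6, and they changed by -1.54 ± 0.19 and -1.40 ± 0.27. The arrays of the groups did not overlap in any of these receptors, which follows largely from the calls. Among jasmonate genes MYC3 rose by 0.44 ± 0.16, a call lost under 7 of the 14 alternatives, among them scaling to the hybridisation controls and the fits without either dexamethasone array or without the lot 2 array of dexamethasone plus cycloheximide. PDF1.2 had a log2 change of 0.62 ± 0.45 (limma, adjusted p = 0.331). The cytokinin response regulators RR16 and ARR15 (-0.36 and -0.09) and the auxin gene AT2G18010 (-0.28) were not called.

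Of the 9 measured floral and flowering-time regulators 2 were called lower and none higher, a share of lower calls (22.2%) near that of all loci (22.6%). SNZ, an AP2-like repressor of flowering, had 12 and 22.3 with dexamethasone plus cycloheximide, against 59.3 and 90.2 with dexamethasone, and changed by -1.64 ± 0.31 under a call that held in all 14 alternatives. JAG, which promotes growth of lateral organs, changed by -1.02 ± 0.36, with 2.9 and 9.5 against 16.9 and 28.7, and that call was lost under 6 of the 14, among them equal medians and the fits without the lot 2 array of dexamethasone or the lot 1 array of dexamethasone plus cycloheximide. The related repressor gene SMZ (-0.38), UFO, the F-box partner of LEAFY (-0.76), SPT (-0.37) and SPL (-0.26) were not called and neither was FD (0.17); the remaining 2 members, also not called, are not reported here. UFO and SPL were dim, with signals of 1.9 to 28.4 over the 4 arrays. The clock gene GI had 187.9 and 210.1 against 293 and 349.4 and fell by 0.66 ± 0.16, a call lost with equal medians (limma, adjusted p = 0.104).

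Of 10 measured nuclear genes of photosynthesis 8 fell and none was called higher, with a median of -1.20 (from -0.97 to -1.5 under the other scalings) and 6 lower calls under all 4 scalings. These are bright genes: 9 of the 10 had a signal of 1000 and over in Landsberg erecta, of which 7 fell (77.8%), near the 75.1% of all 349 loci in that band. LHCB4.2, an antenna protein of photosystem II, had 971.4 and 569.1 with dexamethasone plus cycloheximide, against 2906.9 and 3202.8 with dexamethasone, and changed by -2.02 ± 0.28. PSAE-1, of photosystem I, had 1968.8 and 1384.8 against 5683.7 and 6685.4 and changed by -1.89 ± 0.31. PRK, a Calvin cycle kinase, and PSBY changed by -1.48 ± 0.25 and -1.47 ± 0.23. RCA, the Rubisco activase gene, had 6227.1 and 6084.5 against 6291.5 and 7609.5, a difference that was not called (-0.17 ± 0.26). Among antenna genes of one subfamily, LHCB4.1 had a change of -0.57 ± 0.23 that was not called either (limma, adjusted p = 0.0692).

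Of 69 plastid-encoded genes 14 were called lower and none higher, with a median of -0.37, and the count was 5 with equal medians and 24 with scaling to the hybridisation controls. The clearest falls were those of ndhG, a subunit of the plastid NAD(P)H dehydrogenase complex (-1.03 ± 0.18), rbcL, the large subunit of Rubisco (-1.18 ± 0.23), psbC, an inner antenna of photosystem II (-1.29 ± 0.26), and ycf3 (-1.35 ± 0.30). The share of lower calls, 14 of 69, was near that of all loci (22.6%). Among the 41 plastid genes with a signal of 1000 and over in Landsberg erecta, 7 were called lower (17.1%), against 75.1% of all loci in that band.

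Of 123 measured cytosolic ribosomal protein genes 60 were called lower and 2 higher, with a median of -0.53. With equal medians the counts were 20 and 5 and the median -0.30, with scaling to the hybridisation controls 69 and 1 and -0.83, so the number of calls depends on the scaling while the sign of the median does not. Under all 4 scalings 20 of the 123 were called lower (16.3%), the same share as of all loci (16.3%). Of the 69 ribosomal protein genes with a signal of 1000 and over in Landsberg erecta 46 were called lower (66.7%), against 75.1% of all loci in that band, and of the 34 from 200 to 1000, 14 were (41.2%), against 63.9%. The ribosomal protein gene AT4G39200 had 914.5 and 671 with dexamethasone plus cycloheximide, against 2297.3 and 1910.9 with dexamethasone, and changed by -1.41 ± 0.26. AT4G30800 ran the other way, with 322.4 and 350.9 against 136.6 and 101, and rose by 1.44 ± 0.18 under every scaling. The other higher call, AT3G16780 (0.66 ± 0.20), was lost with scaling to the hybridisation controls, without the lot 1 array of dexamethasone plus cycloheximide and without the lot 2 array of dexamethasone.

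All 8 measured 26S proteasome genes were called lower, 5 of them under all 4 scalings, with changes from -1.07 to -0.44. All 8 had a signal from 200 to 1000 in Landsberg erecta, where 63.9% of all loci were called lower, and the median change was -0.71 for the 8, against -0.78 for the loci of the band. AT1G45000 had 367.1 and 339.2 with dexamethasone plus cycloheximide, against 600.9 and 611.3 with dexamethasone (-0.76 ± 0.12), and RPN12a, a lid subunit, had 410.6 and 458.5 against 678.9 and 720 (-0.68 ± 0.12). Of the 3 nucleolar ribosome assembly genes, AT5G08180 (0.59), AT3G05060 (0.39) and AT3G03920 (0.09), none was called, and neither were the RNA decay genes UPF3 (0.16) and AT2G39260 (-0.16).

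Of 12 histone genes 2 rose (16.7%, near the 13.4% of all loci) and none fell. AT3G53650 had 97 and 116.1 with dexamethasone plus cycloheximide, against 11.4 and 11.5 with dexamethasone, and rose by 2.44 ± 0.29, while AT2G37470 rose by 0.92 ± 0.19, a call lost with scaling to the hybridisation controls (limma, adjusted p = 0.102). With equal medians 6 histone genes were called higher, beside 2206 of all 13333 loci. Of 4 cell cycle genes, PRL, a subunit of the replication helicase, had 67.1 and 74.6 against 128.5 and 119.7 and fell by 0.73 ± 0.20, a call lost without the lot 1 array of either group. The mitotic kinase genes AUR2, AUR1 and AUR3 had changes of -0.74, -0.46 and -0.23, and the call of AUR2 was lost under 7 of the 14 alternatives, among them equal medians and the fits without the lot 2 array of dexamethasone or without either dexamethasone plus cycloheximide array.

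In the list of expansins and xyloglucan enzymes, wall-loosening proteins of growing cells, 3 of 15 rose and 3 fell, each under all 4 scalings. XTH33 rose beside XTH18 and XTH19, by 2.64 ± 0.41, with 134.7 and 175.1 with dexamethasone plus cycloheximide, against 33.2 and 6 with dexamethasone. XTH32 had 30.2 and 39.7 against 195.1 and 301.5 and changed by -2.50 ± 0.28, and EXGT-A3 had 508.1 and 742.1 against 1363 and 1598.7 (-1.25 ± 0.22). EXPA8 had 89.3 and 96.5 against 177.3 and 228.6 and changed by -1.04 ± 0.22. The median of the list was -0.06, 0.13 with equal medians, -0.34 with the hybridisation controls and 0.12 with quantile normalisation.

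The 4 glucosinolate genes had no member called higher: BCAT4 and AOP3 fell as given above, AOP1 had 37.2 and 30.8 with dexamethasone plus cycloheximide, against 75.8 and 73 with dexamethasone (-0.94 ± 0.19), and UGT74B1, a late enzyme of the pathway, was not called (-0.12). Of 2 phenylpropanoid genes CCR2 rose, and the anthocyanin gene DFR, with 63.5 and 54 against 99.7 and 146.3, fell by 0.93 ± 0.33, a call lost under 6 of the 14 alternatives, among them equal medians and the same 3 single-array fits as for AUR2. Of 6 heat shock genes AT5G51440 rose by 2.35 ± 0.50, with 629.3 and 882.9 against 255.7 and 72.3. Hsp70-2 changed by -1.38 ± 0.40, and its call was lost without the lot 1 array of either group and without the lot 2 array of dexamethasone plus cycloheximide. ATHSP22.0 (-1.60), AT3G09440 (-0.66), AT5G37670 (-0.10) and AT1G53540 (0.70) were not called.

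**Figure D3:**
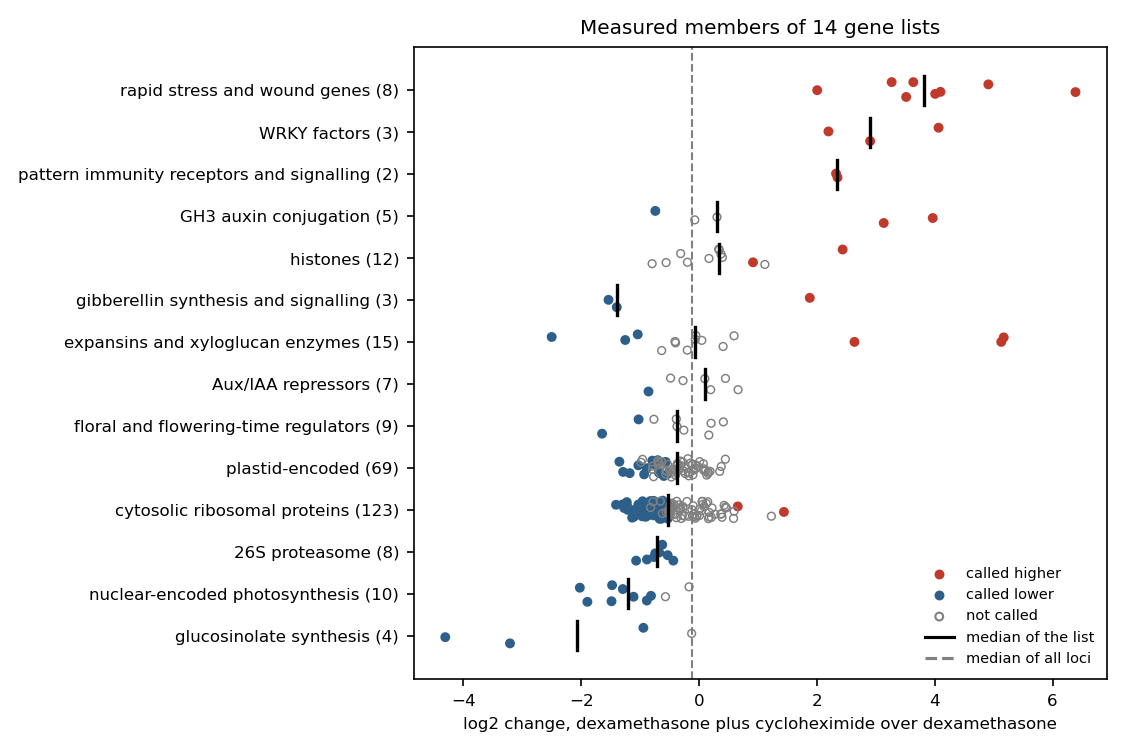
Log2 change, dexamethasone plus cycloheximide over dexamethasone, of the measured members of 14 gene lists, with the number of members in brackets; filled points were called higher (red) or lower (blue), open points were not called, black ticks are list medians and the dashed line is the median of all loci (-0.13). The rapid stress, WRKY and pattern immunity genes all lie above 2, the 8 proteasome genes between -1.07 and -0.44, and the ribosomal protein genes spread around a median of -0.53, or -0.30 with arrays scaled to equal medians.

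Gene families were taken by their symbols and chosen after values were seen, so they cannot show how common changes of both signs are within families. They are read against the 1535 loci with a symbol, of which 205 were called higher (13.4%) and 475 lower (30.9%), with a median of -0.27. Of 47 UDP-glycosyltransferase genes, whose enzymes attach sugars to hormones and secondary metabolites, 11 rose (23.4%) and 15 fell (31.9%). UGT73B4 had 2311.6 and 2210.8 with dexamethasone plus cycloheximide, against 277.3 and 66.6 with dexamethasone, and rose by 3.94 ± 0.65, and UGT84B1, known to glucosylate auxin, had 142 and 204.7 against 3.5 and 5.3 and rose by 3.65 ± 0.35. UGT78D1, a flavonol glycosyltransferase gene, had 1.1 and 1.7 against 58.7 and 111.5 and changed by -3.0 ± 0.31.

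Tau glutathione transferases, detoxifying enzymes, divided in the same manner, with 3 of 11 higher (27.3%) and 5 lower (45.5%). GSTU22 had 2389.4 and 2730.7 with dexamethasone plus cycloheximide, against 211.3 and 94.5 with dexamethasone, and rose by 4.08 ± 0.39, and GSTU25 rose by 3.91 ± 0.65. GSTU20, at 164.8 and 167.5 against 1457.4 and 1514.5, changed by -3.09 ± 0.23. Of 20 β-glucosidase genes 5 rose (25%) and 2 fell (10%), and BGLU46 had 1750.8 and 1458.2 against 162.6 and 60.3 and rose by 3.87 ± 0.40. Of 23 cytochrome P450 genes 5 rose and 4 fell, with CYP71B22 (2.86 ± 0.23) highest.

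SWEET genes, which encode sugar transporters, held 2 that rose (14.3%) and 3 that fell (21.4%) among 14. Of all loci with a symbol 13.4% rose and 30.9% fell. SWEET8 had 315 and 679.8 with dexamethasone plus cycloheximide, against 24.2 and 24.8 with dexamethasone, and rose by 3.78 ± 0.39. SWEET11, a phloem-loading transporter of leaves, had 54.7 and 70.9 against 532.9 and 619.1 and changed by -3.01 ± 0.19. Both groups of arrays were well apart in each, which follows largely from the choice of genes by their change. Of 10 RALF-like genes 5 fell (50%) and 2 rose (20%). RALFL34 had 114.2 and 96.1 against 371.1 and 450.5 and changed by -1.87 ± 0.14. RALFL33 had 1277.5 and 1696.9 against 563.2 and 346.7 and rose by 1.71 ± 0.23.

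Aldehyde dehydrogenase genes had 6 of 8 lower (75%, against 30.9% of all loci with a symbol) and none higher. Their median was -1.11 (from -0.87 to -1.40 under the other scalings). The family was bright, with median signals of 709 and 750 on the dexamethasone arrays. Of all loci with a signal from 200 to 1000 in Landsberg erecta 63.9% were called lower, and the share within such a band was not counted for this family. ALDH7B4 had 199.8 and 176.6 with dexamethasone plus cycloheximide, against 1627.4 and 1626.2 with dexamethasone, and changed by -3.05 ± 0.15. ALDH6B2, of valine breakdown, had 288.7 and 258 against 1993.3 and 1857.5 and changed by -2.77 ± 0.17. Serine carboxypeptidase-like genes had 11 of 29 lower (37.9%) and 1 higher, scpl28, which rose by 2.79 ± 0.21. IQD genes, for calmodulin-binding proteins, had 6 of 15 lower (40%) and 1 higher, with IQD24 at -2.11 ± 0.27. The shares of the carboxypeptidase-like and IQD genes were near the 30.9% of all loci with a symbol.

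Of 9 PUB genes, for U-box ligases that attach ubiquitin to target proteins, 6 were called higher (66.7%), 5 of them under all 4 scalings, and 1 lower (11.1%). Of 7 calmodulin-like genes 5 rose under every scaling (71.4%), and CML42 had 1716.5 and 1732.7 with dexamethasone plus cycloheximide, against 203.3 and 224.4 with dexamethasone, and rose by 2.96 ± 0.12. Of all loci with a symbol 13.4% rose. PUB22, PUB23, PUB24, CML37 and CML38 were already counted among the rapid stress and wound genes, so these shares partly repeat that result.

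Of 14 bZIP genes 4 rose (28.6%) and 2 fell (14.3%). BZIP28, which senses stress in the endoplasmic reticulum, had 438.9 and 600.1 with dexamethasone plus cycloheximide, against 110.8 and 135.7 with dexamethasone, and rose by 1.98 ± 0.21 beside BZIP60, and BZIP53 rose by 1.52 ± 0.15. Of 7 ATG8 genes, for the ubiquitin-like coat of autophagosomes, ATG8E rose by 1.12 ± 0.15, with 2754.6 and 3206.1 against 1403.2 and 1312.7, while ATG8F, with 406.7 and 419.8 against 1721.1 and 1387.5, changed by -1.88 ± 0.18, and ATG8C by -1.03 ± 0.18. Higher calls thus took 14.3% of the ATG8 genes and lower calls 28.6%. The TBL wall acetylation genes (3 of 22 higher and 3 lower, 13.6% each) had TBL21 at 2.29 ± 0.33 and TBL25 at -2.48 ± 0.27. Of 7 exocyst genes SEC10 rose by 1.1 ± 0.17 and 1 fell (14.3% each). Under all 4 scalings the higher and lower calls were 10 and 14 for UGT, 3 and 4 for GSTU, 5 and 1 for BGLU, 5 and 2 for P450 and 0 and 4 for ALDH genes. They were 1 and 9 for SCPL, 1 and 4 for RALFL, 3 and 1 for bZIP, 2 and 3 for TBL and 1 and 0 for exocyst genes.

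The arrays without dexamethasone gave a second measure of the cycloheximide effect, since the cycloheximide and mock arrays do not enter the log2 changes of the main comparison. They do add to the fitted spread, which both comparisons share, so only the log2 changes are separate and the calls are not independent. In that pair 9727 probe sets passed the same threshold (42.8%), with 3909 raised (17.2%) and 5818 lowered (25.6%) by cycloheximide. Of the 3280 probe sets raised with dexamethasone present, 2923 were also called higher without it, which is 89.1% of the first list and 74.8% of the second. Of the 5959 lowered, 4946 were also called lower, 83.0% and 85.0% of the lists. Opposite calls were made for 6 of the raised and 5 of the lowered probe sets. All 828 called probe sets with a change of at least 3 log2 units were called in the same direction without dexamethasone, and their changes differed by a median of 0.289 log2 units between the comparisons.

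Without dexamethasone CCR2 changed by 6.99 and DLAH by 7.01. BCAT4 changed by -3.74 there and MCCB by -3.97. All 15 genes that rose most, and all 15 that fell most, were called in the same direction in the cycloheximide against mock comparison, with log2 changes from 3.43 to 7.01 and from -4.81 to -2.54. The smallest of those rises was that of XTH19, with 628.8 and 594.7 with cycloheximide, against 46.4 and 48.6 in mock.

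**Figure D4:**
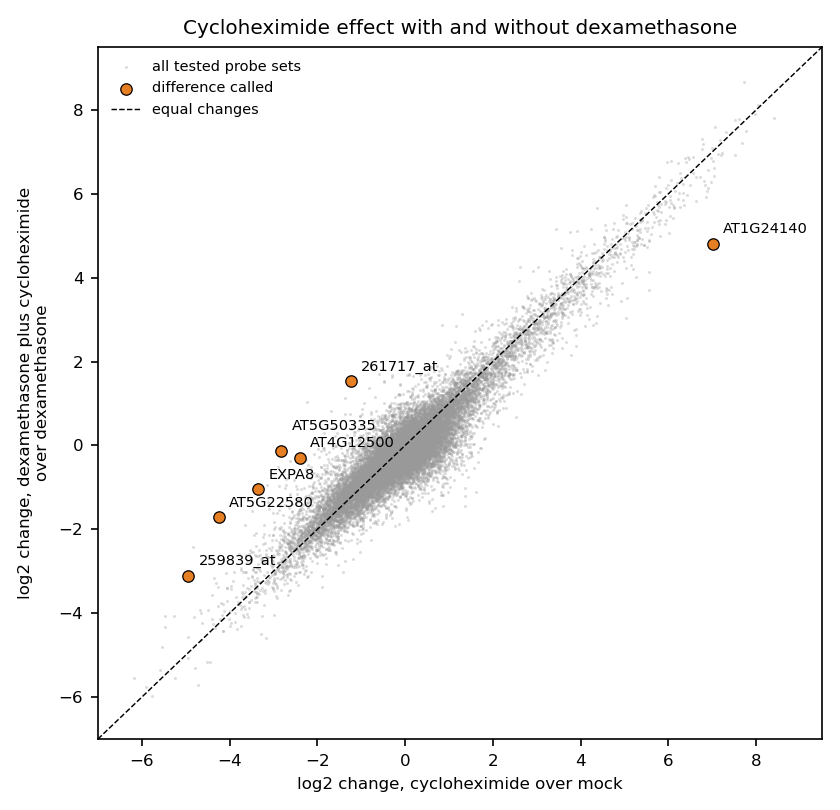
Log2 change of each tested probe set with cycloheximide when dexamethasone was present (vertical) and absent (horizontal); the dashed line marks equal changes and orange points the 7 probe sets whose difference was called. Most points lie along the line, AT1G24140 lies below it (4.81 against 7.01), and the other 6 lie above it.

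The difference between the cycloheximide effects was then tested directly, as the change with dexamethasone minus the change without it. Of the 22746 probe sets, 7 passed (0.0308%), 6 with a higher change in the presence of dexamethasone (0.0264%) and 1 with a lower one (0.0044%). An unadjusted p under 0.05 in limma was found for 1168, about as many as this threshold passes when no probe set differs. That count depended on the fit: it was 921 over the 8 LEAFY-GR arrays alone and 1672 with the lot as a block. It therefore does not show that no probe set differs. With the lot as a block, 2 passed the adjusted threshold. AT1G24140 rose in both comparisons but less with dexamethasone: it had 2487.3 and 2065 with dexamethasone plus cycloheximide, against 73.1 and 69.2 with dexamethasone, and 1584.8 and 1881.7 with cycloheximide, against 2.9 and 4.1 in mock. Its groups differed mainly between dexamethasone and mock, and the difference of the changes was -2.20 ± 0.26 (limma, adjusted p = 0.0312).

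The unnamed probe set 261717_at was the only one of the 7 whose change turned over. It had 430.9 and 377 with dexamethasone plus cycloheximide, against 125.4 and 141.4 with dexamethasone, and 57.3 and 53.1 with cycloheximide, against 133.4 and 153.9 in mock, a rise of 1.53 and a change of -1.23. The difference was 2.76 ± 0.26 (limma, adjusted p = 0.00678).

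EXPA8, an expansin gene, fell in both comparisons but more without dexamethasone: it had 5.3 and 7.1 with cycloheximide, against 122 and 196.8 in mock, and the difference between its changes was 2.31 ± 0.31 (limma, adjusted p = 0.0433). AT5G22580 had 9.1 and 7.1 with dexamethasone plus cycloheximide, against 48.2 and 50.4 with dexamethasone, and 4.4 and 8.6 with cycloheximide, against 330.8 and 272.5 in mock. As with 259839_at, both cycloheximide groups of AT5G22580 lay near the bottom of the scale, and the dexamethasone and mock arrays differed. AT5G50335 and AT4G12500 were highest in mock, at 71.7 and 59.8 and at 253 and 292.8, and were not called between dexamethasone plus cycloheximide and dexamethasone (-0.14 and -0.30).

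The next smallest p-values of the difference test, none of them called, were those of AT2G39980 (1.89, limma, adjusted p = 0.125) upward and of YLS5 (-1.19, 0.152), AT3G28680 (-2.80, 0.161), UGT76E1 (-1.64, 0.230) and AT5G59680 (-1.84, 0.237) downward. The call set is sensitive to single arrays: with any 1 of the 8 LEAFY-GR arrays left out, 0 to 2 of the probe sets tested were called.

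**Figure D5:**
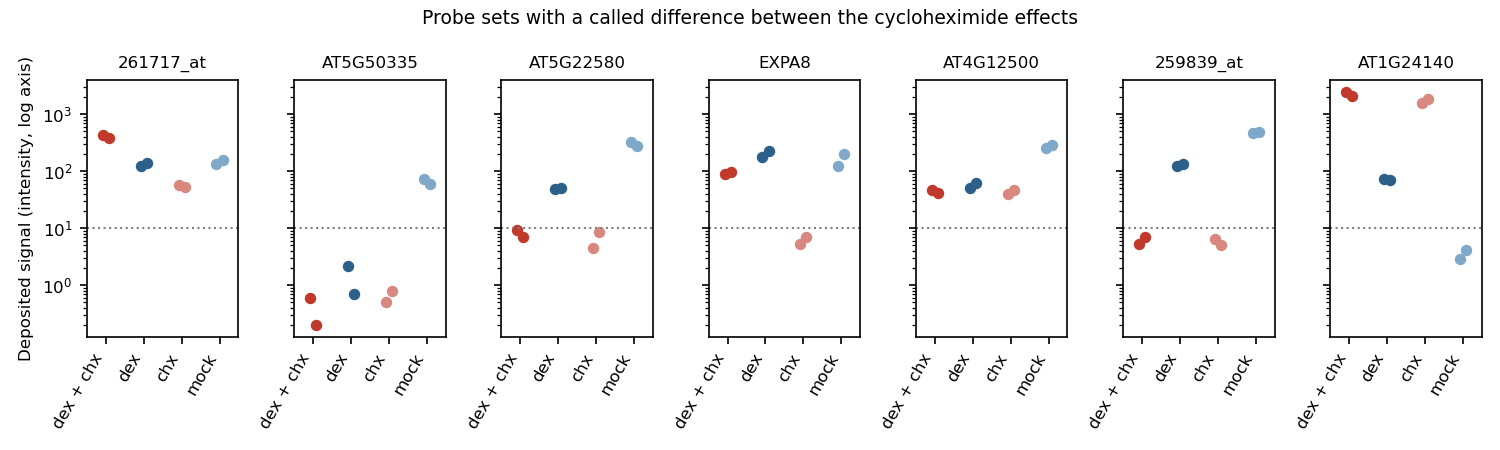
Deposited signal (intensity, log axis) of the 7 probe sets with a called difference, in dexamethasone plus cycloheximide (dex + chx), dexamethasone (dex), cycloheximide (chx) and mock, with 2 arrays each; the dotted line marks the pseudocount of 10. AT1G24140 lies between 1584.8 and 2487.3 in both cycloheximide groups and differs between dexamethasone (73.1 and 69.2) and mock (2.9 and 4.1), and 261717_at is higher with dexamethasone plus cycloheximide than in the other 3 groups.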

How the data were processed

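Values are the deposited intensity, on a linear scale, of 22810 Affymetrix probe sets, read from 12 arrays. What software produced it was not given in the sources used here. Their mean after trimming 2% at each end is 150 on every array, so the deposited intensities were taken as already scaled. The number of arrays limits the precision, and with no background values deposited no detection limit was set. Of the probe sets, 64 Affymetrix controls were left out. Names came from the platform annotation and RefSeq genes of TAIR10.1, used for names only: of 14016 probe sets listed 13513 had 1 gene and 503 several, 13484 matched, giving 13333 loci (1535 with a symbol), and 9262 tested probe sets are unnamed here. The probe set of LFY is not among those named, so LFY was not analysed here.

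limma 3.58.1 in R 4.3.3 fitted log2(intensity + 10) with 1 mean for each of the 6 groups over all 12 arrays (6 residual and 5.34 prior degrees of freedom, intensity trend). P-values were adjusted over all 22746 probe sets by the Benjamini-Hochberg method and called under 0.05. Log2 changes on this scale understate those of dim probe sets, and errors are standard errors of the fit. The probe set with the highest mean signal stood for a locus. Scripts for the test were tested on simulated data. Counts and figures were made in Python 3.11.15 (matplotlib 3.10.9, numpy 2.4.6, pandas 2.3.3).

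The gene lists, the comparison and the genes named were chosen with earlier results of these data known. Genes named are the 15 highest and 15 lowest changes with a symbol (called, same direction in both lots, mean signal of at least 50 in the higher group), 5 each way by locus code, up to 4 called members of each list each way (all members of lists with up to 6 measured), and 5 each way with the smallest p for the difference test. Family members, other list members and AT5G60630 were chosen after their values were seen. Sequences and promoter motifs were not analysed here. Some gene families and list members are not reported here.

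The labels give each array a lot batch, so replicate numbers pair the arrays. The deviations of same-lot arrays from their group means correlated at 0.0488 to 0.334 over 15 pairs of groups, above 0.1 in 12. Alternatives were other pseudocounts (1 and 32), scaling to equal medians, to 18 hybridisation controls or by quantiles, leaving out probe sets with a mean signal under 20, the lot as a block, no intensity trend, fits over fewer arrays and each array left out. The count of calls shared by all 4 scalings, and the counts of list members by signal band, were added after seeing the data.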

Additional observations from a re-analysis of the deposited data

Results flagged for a closer look

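The 7 probe sets below are given because their cycloheximide effect differed between seedlings with and without dexamethasone by a test of the difference itself (limma, change with dexamethasone minus change without it). For 261717_at the difference was 2.76 ± 0.26 log2 and it was called under 13 of 17 alternatives, with an adjusted p up to 0.113. AT1G24140 (-2.20 ± 0.26) was called under 4 of 17, and its size ran from -3.62 with a pseudocount of 1 to -1.15 with a pseudocount of 32. Its mock signals lie below 10. AT5G22580 (2.53 ± 0.32) was called under 5 of 17, AT4G12500 (2.11 ± 0.27) and EXPA8 (2.31 ± 0.31) under 4 of 17 each, 259839_at (1.84 ± 0.25) under 3 of 17 and AT5G50335 (2.69 ± 0.37) under 1 of 16. All 7 kept the sign of their difference under each of these alternatives. AT5G50335 had signals of 2.2 or less on all dexamethasone and cycloheximide arrays, against 71.7 and 59.8 in mock.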

How the results depend on the processing

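For dexamethasone plus cycloheximide against dexamethasone, calls numbered 7511 to 8122 when 1 of its 4 arrays was left out and 8010 when the fit held those 4 arrays alone. With the lot as a block (replicate block) they were 10032, 3540 higher and 6492 lower, and that block gave 2 calls for the difference test in place of 7. The total number of calls stayed within 1.5 times the 9239 of the fit reported under every alternative run; the split by scaling is given above. The difference test was less stable. It gave 7 calls, 6 without dim probe sets, 5 each with a pseudocount of 32 and with quantile normalisation, 4 with a pseudocount of 1, and 2 each with arrays scaled to equal medians, to the hybridisation controls, with the lot as a block and without the intensity trend. It gave 1 call over the 8 LEAFY-GR arrays alone. Leaving out single arrays gave 0 to 2 calls: 2 without the lot 1 array of dexamethasone, cycloheximide or mock, 1 without the lot 2 array of dexamethasone, and with limma 0 without either dexamethasone plus cycloheximide array (996 and 1538 probe sets at an unadjusted p under 0.05) or the lot 2 array of cycloheximide (1185) or mock (1020). The cause was not tested. PRL was lost without the lot 1 array of either group, and MYC3, IAA33, JAG, DFR and AUR2 without several single arrays. No called gene named here changed sign under any alternative. A description of promoter motifs was planned and not run. With 2 arrays a group, single calls near the threshold are the least certain, and signals under the pseudocount have no reliable order.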
